A study of Mus musculus with 9 samples.

Results

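Neutrophil marker genes were taken by symbol from the 55401 genes counted in whole mouse liver. They were 10 genes, S100a8, S100a9, Ngp, Camp, Retnlg, Csf3r, Il1r2, Trem1, Ly6g and Il1b. They were chosen by symbol, with earlier results of these data known. Their RNA was scarce, and all 10 together had 106 to 123 counts per healthy liver, 578 to 617 per liver with untreated HCC and 355 to 624 per liver with miR-22-treated HCC. Of the 10, S100a8, S100a9, Csf3r and Trem1 were higher in untreated HCC than in healthy livers, by 5.35-fold to 11.4-fold. In miR-22-treated HCC the same 4 were higher than in healthy livers by 5.21-fold to 11.3-fold. Between miR-22-treated and untreated HCC, 0 of the 5 members that could be tested passed the test. Over all genes tested, 8.32% were higher and 5.47% lower in this comparison, so 0 of 5 is a description.

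Neutrophils are short-lived white blood cells that are made in bone marrow under granulocyte colony-stimulating factor (G-CSF), circulate in blood and enter tissue along gradients of chemokines that bind the receptor CXCR2. Their granule proteins are made in sequence, from early precursors in the marrow to mature cells, and circulating neutrophils keep little RNA for the early ones. In liver tumors, neutrophils are among the myeloid populations that surround and enter the tumor, beside monocytes and macrophages, and these cells share part of the genes described here.

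The livers came from female mice aged 6 weeks at the start. Per the labels the animals were FVB/N in the growth protocol and C57BL/6 in the strain field. The 3 healthy livers came from mice without any treatment, and no collection time is given for them. The other 6 mice received oncogene plasmids by hydrodynamic tail-vein injection, which carries DNA mainly into hepatocytes, together with the sleeping beauty transposase that inserts it into the genome. The series describes the tumors as RAS/AKT-induced, from HA-myr-AKT and Nras-v12, and its protocol, written for all models of the study, also names an N90-β-catenin plasmid. Mouse tumors of this kind are driven by oncogenes placed in hepatocytes, and other cells of the host are intact. At week 1 after the plasmids, 3 mice were given AAV8 without an insert (untreated HCC) and 3 were given AAV8-miR-22 (miR-22-treated HCC), in 1 intravenous dose, and the HCC livers were taken at week 5. Both HCC groups carried the plasmids and an AAV8 vector, and the healthy livers carried neither, so tumor, plasmids and virus cannot be told apart in comparisons with healthy livers. Library totals ran from 16664659 to 23908392 counts, and no library stood apart in depth. Levels are given as CPM, counts scaled to a common library total with TMM factors. Akt1, the mouse gene of 1 of the oncogenes, had 103 to 109 CPM in the healthy group, 1170 to 1673 in the untreated group and 671 to 1104 in the miR-22-treated group.

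The label of the gene set was checked against its own defining antigen. Ly6g, the surface protein that antibodies against mouse neutrophils recognize, had 0 counts in 8 of 9 livers and 2 counts in miR-22-treated replicate 2. A count of 0 allows up to 3 counts, which equals 0.112 to 0.191 CPM in these libraries, so a lower level of Ly6g was not detectable at this depth. Cxcr2, the chemokine receptor of mature neutrophils, had 2, 1 and 3 counts in healthy livers, 52, 39 and 45 in untreated HCC and 41, 36 and 36 in miR-22-treated HCC. Of 5 genes of primary granules and precursors, Mpo, Elane, Ctsg and Ms4a3 had at most 6 counts in any liver, while Prtn3, the gene of proteinase 3, had 0, 2 and 1 counts in healthy livers, 13, 34 and 27 in untreated HCC and 22, 15 and 11 in miR-22-treated HCC. S100a8, S100a9, Csf3r, Trem1, Il1b and Il1r2 are also made by monocytes or macrophages, so the 10 genes are markers with shared sources, and Ly6g was at or near 0. In bulk liver RNA, fewer cells of a type and less RNA per cell cannot be told apart.

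Calprotectin is the pair of S100a8 and S100a9, small calcium-binding proteins that form a heterodimer, make up much of the cytosol of neutrophils and, once released, bind zinc and manganese and activate TLR4. S100a8 (ENSMUSG00000056054.9) lies on chromosome 3 from 90567118 to 90578128 and S100a9 (ENSMUSG00000056071.12) from 90599931 to 90603071, on opposite strands, 21803 bases apart with 0 protein-coding genes between them (GRCm39, GENCODE M39). S100a8 had 6, 0 and 6 counts in healthy livers, 50, 68 and 50 in untreated HCC and 65, 30 and 56 in miR-22-treated HCC. S100a9 had 20, 4 and 2 counts in healthy livers, 143, 148 and 130 in untreated HCC and 115, 69 and 84 in miR-22-treated HCC. For both genes every HCC liver was above every healthy liver, and the HCC groups overlapped each other.

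S100a8 rose from 0.236 ± 0.205 (SD, n = 3) in healthy livers to 2.42 ± 0.592 in untreated HCC, a log2 fold change of 3.30 (standard error 0.562, edgeR's quasi-likelihood test with Benjamini-Hochberg adjusted p = 0.000256). S100a9 rose from 0.540 ± 0.625 to 6.06 ± 1.04, a log2 fold change of 3.51 (standard error 0.508, edgeR adjusted p = 7.21e-05). The size of the S100a9 change rested on healthy replicate 1, whose 20 counts stood above the 4 and 2 of the other healthy livers, and without this liver the log2 fold change was 5.04. In the same liver Csf3r was also the highest of the healthy livers and the summed level of 5 pan-leukocyte genes was 57.5 CPM against 48.3 and 50.4 in the others. The part of this liver's leukocyte content in the S100a9 value was not tested. In miR-22-treated HCC, S100a8 was 2.76 ± 0.906 CPM and S100a9 was 4.99 ± 1.39 CPM, higher than in healthy livers by 3.50 and 3.23 on the log2 scale (edgeR adjusted p = 0.000434 and 0.000426).

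The ratio of the subunits was computed within each HCC liver as a description. In untreated HCC there were 2.86, 2.18 and 2.6 S100a9 counts per S100a8 count, and in miR-22-treated HCC 1.77, 2.3 and 1.5. The lowest ratio in untreated HCC fell inside the range of miR-22-treated HCC, so the groups overlapped. Healthy livers had too few counts for a ratio. Of the receptors of calprotectin, Tlr4 had 3.93 ± 0.307 CPM in healthy livers, 3.58 ± 0.769 in untreated HCC and 4.47 ± 0.565 in miR-22-treated HCC, and it passed the test in 0 of 3 comparisons, while Ager, the other receptor, was below the filter on low counts.

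The promoters of the calprotectin genes are shown because the genes lie side by side and both rose. They run from 250 bases before to 50 bases after the start of the GENCODE canonical transcript, 5′ to 3′ on the gene's own strand, from GRCm39 (chr3:90576035-90576334, plus strand, and chr3:90603022-90603321, minus strand). Capitals mark matches on either strand to a C/EBP motif searched as TTGCNNAA and a PU.1 motif searched as GAGGAA, both of them letters bound by factors of granulocyte development.
S100a8: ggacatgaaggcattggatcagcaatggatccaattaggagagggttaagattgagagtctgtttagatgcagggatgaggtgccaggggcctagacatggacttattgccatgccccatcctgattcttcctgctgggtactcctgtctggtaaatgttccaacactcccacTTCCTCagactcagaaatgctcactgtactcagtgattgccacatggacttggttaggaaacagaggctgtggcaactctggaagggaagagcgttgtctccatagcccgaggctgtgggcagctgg
S100a9: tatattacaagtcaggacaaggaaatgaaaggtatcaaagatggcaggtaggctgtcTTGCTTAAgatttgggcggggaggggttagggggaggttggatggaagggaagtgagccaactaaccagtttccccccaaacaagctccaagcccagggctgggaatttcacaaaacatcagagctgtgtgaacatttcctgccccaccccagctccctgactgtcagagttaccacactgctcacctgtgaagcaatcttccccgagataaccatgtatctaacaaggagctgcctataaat

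The S100a9 window held the C/EBP letters 193 bases before the start, and the S100a8 window held the PU.1 letters 77 bases before the start. Across the 10 members, 4 windows held the C/EBP letters (Camp, Ly6g, Ngp and S100a9), where 10.7% of 21770 protein-coding promoters of the same length did. The PU.1 letters were in 3 windows (Ly6g, S100a8 and Trem1) against 27.5% of all, and a STAT motif searched as TTCNNNGAA was in 1 (Trem1) against 8.81%. A match describes the letters of the window and no binding was measured.

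**Figure D1:**
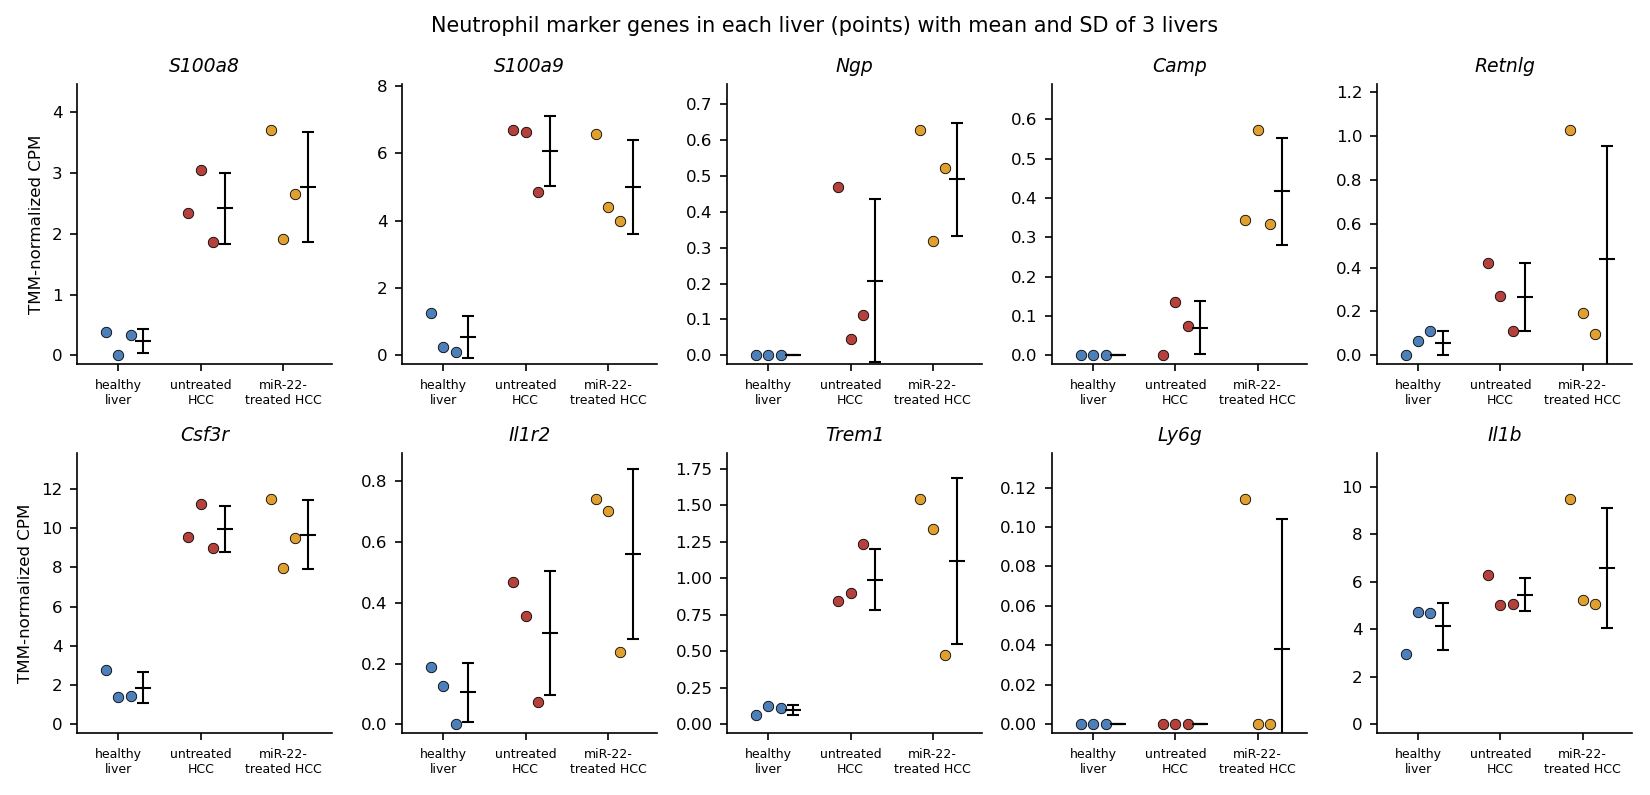
TMM-normalized CPM (vertical axes, each from 0 on its own linear scale) of the 10 neutrophil marker genes in each liver, with points for the 3 livers of healthy liver, untreated HCC and miR-22-treated HCC and bars for mean and SD. S100a8, S100a9, Csf3r and Trem1 show all 6 HCC livers above the 3 healthy livers, Il1b shows a small gap, and Ly6g is above 0 in 1 liver.

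The secreted granule and cysteine-rich proteins were the scarcest members. Ngp (neutrophilic granule protein) and Camp (the cathelicidin that yields the antimicrobial peptide CRAMP) belong to the secondary granules, which are filled late in marrow development, and Retnlg is a resistin-like protein of circulating neutrophils. Ngp had 0 counts in each healthy liver, 10, 1 and 3 counts in untreated HCC and 11, 5 and 11 in miR-22-treated HCC. Camp had 0 counts in each healthy liver, 0, 3 and 2 in untreated HCC and 6, 9 and 7 in miR-22-treated HCC. Retnlg had 0, 1 and 2 counts in healthy livers, 9, 6 and 3 in untreated HCC and 18, 3 and 2 in miR-22-treated HCC. For Ngp and Camp every miR-22-treated liver was above every healthy liver, while for Retnlg they overlapped in CPM.

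None of the 3 passed the filter on low counts, so they are given as pooled counts of the group, with floors of 3 counts over the group and exact 95% intervals that cover counting error only. Against the floor, Ngp was 3.31-fold higher in untreated HCC and 8.30-fold higher in miR-22-treated HCC than in healthy livers. Folds against the floor leave out the counting error of the HCC counts. Of the 14 Ngp counts of untreated HCC, 10 came from replicate 2, and without this liver the fold against the floor was 1.36. Camp was 6.76-fold higher than the floor in miR-22-treated HCC, and in untreated HCC its 5 pooled counts stood close to the floor of 3. Retnlg, with 3 counts in all healthy livers together, had a ratio of 4.26 (1.24 to 22.6) for untreated HCC, and for miR-22-treated HCC it was 7.07 (2.14 to 36.8). Of the 18 Retnlg counts of untreated HCC, 9 came from replicate 2, and of the 23 of miR-22-treated HCC, 18 came from replicate 2. With 1 liver left out the ratio for untreated HCC ran from 2.90 (0.847 to 15.4, without healthy replicate 1) to 8.12, and that for miR-22-treated HCC ran from 2.27 (0.442 to 14.6) without its replicate 2 to 13.5, both highest without healthy replicate 3.

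Camp was the member whose miR-22-treated livers were all above the untreated livers, with 22 against 5 counts and a ratio of 5.72 (2.11 to 19.3), which ran from 3.99 to 9.77 with 1 liver left out, highest without untreated replicate 3. How many of all genes had their livers in this order was not computed. For Ngp the ratio between these groups was 2.51 (1.27 to 5.17) with overlapping livers, and with 1 liver left out it ran from 1.84 (0.919 to 3.89, without untreated replicate 3) to 6.12 (2.13 to 24.1, without untreated replicate 2). The interval also included 1 without untreated replicate 4, where the ratio was 1.98. In a fit without a filter on low counts, the Camp difference had an unadjusted p of 0.0321 and an adjusted p of 0.170 in edgeR's test, so it did not pass. Camp and Ngp lie on chromosome 9 570130 bases apart with 8 protein-coding genes between them.

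The surface receptors differed widely in level. Csf3r (ENSMUSG00000028859.14, chromosome 4, 125918262 to 125938236, plus strand) encodes the receptor for G-CSF, which drives neutrophil production and survival. It had 44, 22 and 26 counts in healthy livers, 204, 251 and 241 in untreated HCC and 201, 125 and 200 in miR-22-treated HCC. All HCC livers were above all healthy livers. Csf3r rose from 1.86 ± 0.785 CPM (SD, n = 3) in healthy livers to 9.93 ± 1.16 in untreated HCC, a log2 fold change of 2.42 (standard error 0.255, edgeR adjusted p = 5.21e-06), and stood at 9.66 ± 1.77 in miR-22-treated HCC, 2.38 above healthy livers (standard error 0.257, edgeR adjusted p = 1.99e-05). It had the highest counts in HCC and the smallest standard error of the 5 members tested.

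Trem1 (ENSMUSG00000042265.13, chromosome 17, 48539784 to 48553952, plus strand) encodes a receptor that amplifies inflammatory signals of neutrophils and monocytes through the adaptor DAP12. It had 1, 2 and 2 counts in healthy livers, 18, 20 and 33 in untreated HCC and 27, 21 and 10 in miR-22-treated HCC. Every HCC liver was again above every healthy liver. The change was 3.24 on the log2 scale in untreated HCC (standard error 0.650, edgeR adjusted p = 0.000805) and 3.38 in miR-22-treated HCC (standard error 0.654, edgeR adjusted p = 0.00138). In Csf3r and Trem1, exons of a gene on the opposite strand overlap in the annotation, and since the libraries were not strand-specific, reads of both strands cannot be told apart.

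Il1r2 encodes the decoy receptor that binds interleukin 1 without signaling. Il1r2 had 3, 2 and 0 counts in healthy livers, 10, 8 and 2 in untreated HCC and 13, 11 and 5 in miR-22-treated HCC. Untreated replicate 4 lay within the healthy range, and the miR-22-treated livers were all above the healthy livers. The pooled ratio to healthy livers was 2.84 (1.03 to 9.68) for untreated HCC and 5.35 (2.05 to 17.7) for miR-22-treated HCC, and that between the HCC groups was 1.88 (1.03 to 3.52), counting error only. With 1 liver left out the first ratio ran from 1.80 (0.657 to 6.15, without healthy replicate 3) to 4.84 (without healthy replicate 1). The second ran from 3.40 (1.30 to 11.3) to 9.12 (2.31 to 78.9) without the same livers. The ratio between the HCC groups ran from 1.30 (0.697 to 2.48, without untreated replicate 4) to 2.63 (1.24 to 6.04, without untreated replicate 2), so the intervals of the first and the last included 1 without some livers.

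The promoters of both receptors that rose are shown for comparison with those of calprotectin, in the same window and build (chr4:125918069-125918368, plus strand, and chr17:48539534-48539833, plus strand). Capitals mark the same C/EBP and PU.1 letters.
Csf3r: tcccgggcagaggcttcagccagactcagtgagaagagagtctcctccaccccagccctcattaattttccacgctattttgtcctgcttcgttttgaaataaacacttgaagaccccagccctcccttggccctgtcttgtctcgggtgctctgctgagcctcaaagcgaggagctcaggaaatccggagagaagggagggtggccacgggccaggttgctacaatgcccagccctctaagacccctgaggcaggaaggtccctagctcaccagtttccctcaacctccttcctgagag
Trem1: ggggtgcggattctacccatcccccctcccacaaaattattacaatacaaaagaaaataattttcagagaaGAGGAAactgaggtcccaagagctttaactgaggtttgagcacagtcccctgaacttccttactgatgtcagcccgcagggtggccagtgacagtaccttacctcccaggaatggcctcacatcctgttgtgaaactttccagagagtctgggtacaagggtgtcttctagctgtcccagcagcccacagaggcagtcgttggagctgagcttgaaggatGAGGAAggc

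The Csf3r window held none of the 3 motifs, which says only that these letters are not in this window. The Trem1 window held the PU.1 letters 179 bases before the start and again from base 42 of the transcript. The STAT letters, left in lower case, began 188 bases before the start and ran up to the former PU.1 match.

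Il1b (ENSMUSG00000027398.13, chromosome 2, 129206490 to 129213059, minus strand), the precursor of interleukin 1β, behaved differently from calprotectin and Csf3r. It had 47, 75 and 85 counts in healthy livers, 134, 112 and 136 in untreated HCC and 166, 82 and 106 in miR-22-treated HCC. In CPM the lowest HCC liver, at 5.02, stood just above the highest healthy liver, at 4.73. The means were 4.12 ± 1.01 CPM (SD, n = 3), 5.46 ± 0.712 and 6.59 ± 2.52. The log2 fold change in untreated HCC was 0.40 with a 95% interval from -0.19 to 0.99 (edgeR adjusted p = 0.227), and in miR-22-treated HCC it was 0.67 with an interval from 0.08 to 1.27 (edgeR adjusted p = 0.0718). Neither passed the threshold, and the latter interval reached the size of a 2.41-fold rise. The latter value moved with single livers, from 0.30 without miR-22-treated replicate 2 (edgeR adjusted p = 0.367) and 0.47 without healthy replicate 1 (edgeR adjusted p = 0.238) to 0.84 without miR-22-treated replicate 4, where it passed (edgeR adjusted p = 0.0422). It was 0.54 with the replicate number as a block (edgeR adjusted p = 0.173) and passed at 0.68 without a filter on low counts (edgeR adjusted p = 0.0168). The opposite-strand gene Il1bos, which overlaps an Il1b exon, had at most 5 counts in any liver.

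Per kilobase of the canonical transcript, the order of mean levels in untreated HCC was S100a9 (10.6 CPM per kilobase), S100a8 (4.92), Il1b (4.03), Csf3r (2.83), Retnlg (0.444), Trem1 (0.329), Il1r2 (0.212), Ngp (0.170), Camp (0.0913) and Ly6g (0). S100a9 stood apart, whereas S100a8 and Il1b (SD 1.2 and 0.525) and the neighbours from Retnlg to Camp did not differ beyond their spread. In healthy livers Il1b led with 3.04 CPM per kilobase, followed by S100a9 (0.944, SD 1.09), Csf3r (0.530) and S100a8 (0.479), and the last 3 did not differ beyond their spread. In miR-22-treated HCC the order of the top 4 was that of untreated HCC. S100a8, S100a9, Csf3r and Il1b together made up 86.2% to 96.7% of the summed CPM of the 10 members in each liver.

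Counted over the members, 5 of 10 passed the filter on low counts, and 4 of them rose and 0 fell between the healthy and untreated groups at an edgeR adjusted p under 0.05 and a fold over 1.5. Over all 15717 genes tested, 22.7% were higher and 18.1% lower. In miR-22-treated HCC against healthy livers 4 were higher and 0 lower, where 16.9% and 7.05% of all genes were. Both comparisons share the healthy livers. S100a8, S100a9 and Trem1 passed the filter through their counts in HCC, so a difference was bound to appear among the members that passed, and their count is a description. Without the filter all 10 were fitted, and 5 were higher in untreated HCC (the 4 and Ngp, background 13.5%) and 9 in miR-22-treated HCC (all except Ly6g, background 9.93%). In that fit S100a9 in untreated HCC had an edgeR adjusted p of 1.39e-26, against 7.21e-05 with the filter, at nearly the same fold change. Its p-values were thus far smaller for the same livers, and its calls are a description. Retnlg was among the 9 although its livers overlapped.

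Counted by livers alone, the 5 tested members had every untreated HCC liver above every healthy liver in CPM, where 33.9% of the genes tested did, and the same held in miR-22-treated HCC, where 26.6% did. These counts carry the same limit of the filter. Of the 5 members that were not tested, Ngp and Retnlg had untreated HCC livers above all healthy livers by as little as 1 count against 0 and 3 counts against 2, which is within the floor of 3 counts. In miR-22-treated HCC, Ngp, Camp and Il1r2 had all livers above the healthy livers, with at least 5 counts each against at most 3.

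**Figure D2:**
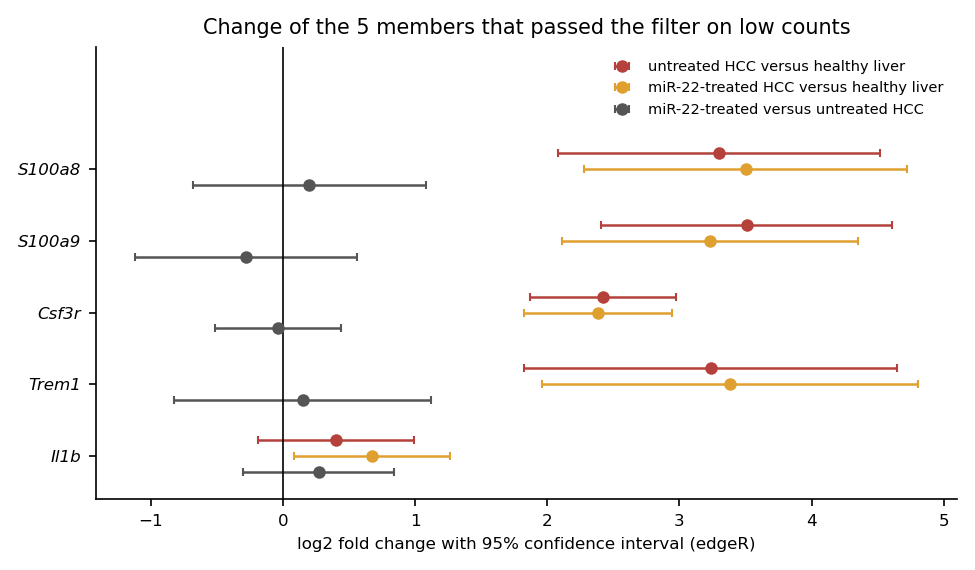
Log2 fold change (horizontal axis) with its 95% confidence interval for S100a8, S100a9, Csf3r, Trem1 and Il1b in 3 comparisons, from edgeR. Intervals of both comparisons with healthy livers lie right of 0 for S100a8, S100a9, Csf3r and Trem1, and all 5 intervals of miR-22-treated against untreated HCC include 0.

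The comparison of miR-22-treated with untreated HCC set AAV8-miR-22 against AAV8 without an insert in tumor-bearing liver. Akt1 was lower in all miR-22-treated than in all untreated livers. Alb ran from 42203 to 51152 CPM in untreated and from 59936 to 72930 in miR-22-treated HCC. The paper reports a lower liver-to-body weight ratio with miR-22. The miRNA and the amount of tumor cannot be told apart in this comparison. A miRNA pairs with messenger RNA mainly through its seed, bases 2 to 8. The mature mouse miR-22-3p from RefSeq (GRCm38.p6) is shown with the seed in capitals, since it is the agent that was delivered.
mmu-miR-22-3p: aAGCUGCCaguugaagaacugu

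The sequence complementary to this seed, GGCAGCT in DNA letters, was in the 3′ untranslated region of 0 of the 10 members, from 24 bases long in Il1r2 to 2276 in Trem1, and in 14.0% of 20854 canonical transcripts with such a region. The share of all transcripts was not matched to the lengths of the members' regions, and a short region has less room for a match. These values describe the letters of the annotated transcripts, and neither binding nor the mature miRNA was measured in these libraries. The host gene Mir22hg, which yields the animal's own miR-22, had 61.9 ± 7.79 CPM (SD, n = 3) in healthy livers, 18.1 ± 4.21 in untreated HCC and 30.8 ± 2.55 in miR-22-treated HCC.

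None of the tested members passed the test. The log2 fold change of miR-22-treated against untreated HCC was 0.20 for S100a8 (95% interval -0.68 to 1.08), -0.28 for S100a9 (-1.12 to 0.56), -0.04 for Csf3r (-0.51 to 0.44), 0.15 for Trem1 (-0.82 to 1.12) and 0.27 for Il1b (-0.30 to 0.84). Their edgeR adjusted p ran from 0.502 to 0.922. Of the 5, 0 had an unadjusted p under 0.05, and DESeq2 also called 0, where edgeR called 8.32% of all genes higher and 5.47% lower. As ratios the intervals ran from 0.460 to 1.47 for S100a9, from 0.623 to 2.12 for S100a8, from 0.702 to 1.35 for Csf3r and from 0.566 to 2.17 for Trem1, so neither a fall nor a rise within these bounds was detectable with 3 livers per group. None of the 10 members had all miR-22-treated livers below all untreated livers. The share of all genes that did was not computed, so this count is a description. The spread within miR-22-treated HCC was large, and replicate 2 had the highest CPM of its group for all members except Camp.

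The genes that act with the members were described from lists written by hand. Their counts are descriptions, to be read against the shares of all genes given above (22.7% higher and 18.1% lower in untreated HCC, and 16.9% and 7.05% in miR-22-treated HCC, against healthy livers). For miR-22-treated against untreated HCC the shares were 8.32% higher and 5.47% lower. Of the 128 listed genes tested besides the members, 35 did not reach the filter's minimum in the 3 healthy livers and passed it only through HCC livers, which favors a rise among them. The ligands that call neutrophils into tissue and their receptors formed a list of 13 genes, 9 of them tested, of which 6 rose and 0 fell in untreated HCC against healthy livers. Of the 6 that rose, 4 (Cxcl2, Cxcl3, Cxcl5 and Ppbp) passed the filter only through HCC livers. Cxcl1, Cxcl2, Cxcl3 and Cxcl5 encode ligands of CXCR2. Cxcl1 rose from 13.2 ± 9.37 CPM (SD, n = 3) in healthy livers to 79.3 ± 16.6 in untreated HCC, a log2 fold change of 2.59 (edgeR adjusted p = 6.85e-05). Cxcl3 had 0 counts in each healthy liver and 146, 115 and 135 in untreated HCC, 93.7-fold higher than a floor of 3 pooled healthy counts. Cxcl5 had 0 in each healthy liver and 71, 32 and 49, 35.9-fold higher than this floor. Both folds leave out the counting error of the HCC counts. Cxcl2 had 2, 0 and 0 counts in healthy livers and 66, 80 and 69 in untreated HCC. Their receptor gene Cxcr2 rose by 3.95 on the log2 scale (edgeR adjusted p = 9.54e-06). Csf3, the ligand of Csf3r, and Cxcr1 had 0 counts in all 9 livers, which allows up to 3 counts in each.

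With miR-22, 2 of these 9 genes fell and 0 rose, where 5.47% of all genes were lower and 8.32% higher. Cxcl3 had 42, 17 and 45 counts in miR-22-treated HCC and fell by 1.58 on the log2 scale against untreated HCC (edgeR adjusted p = 0.00490), and Cxcl2 had 23, 13 and 35 counts and fell by 1.26 (edgeR adjusted p = 0.0302). All miR-22-treated livers were below all untreated livers in both genes. Cxcl5 had 25, 10 and 11 counts, a log2 fold change of -1.34 that did not pass (edgeR adjusted p = 0.0685), and Cxcl1 had -0.57 (edgeR adjusted p = 0.252). Cxcr2 had a log2 fold change of 0.11 (95% interval -0.54 to 0.76, edgeR adjusted p = 0.822). Against healthy livers, 6 of the 9 were still higher and 0 lower in miR-22-treated HCC.

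**Figure D3:**
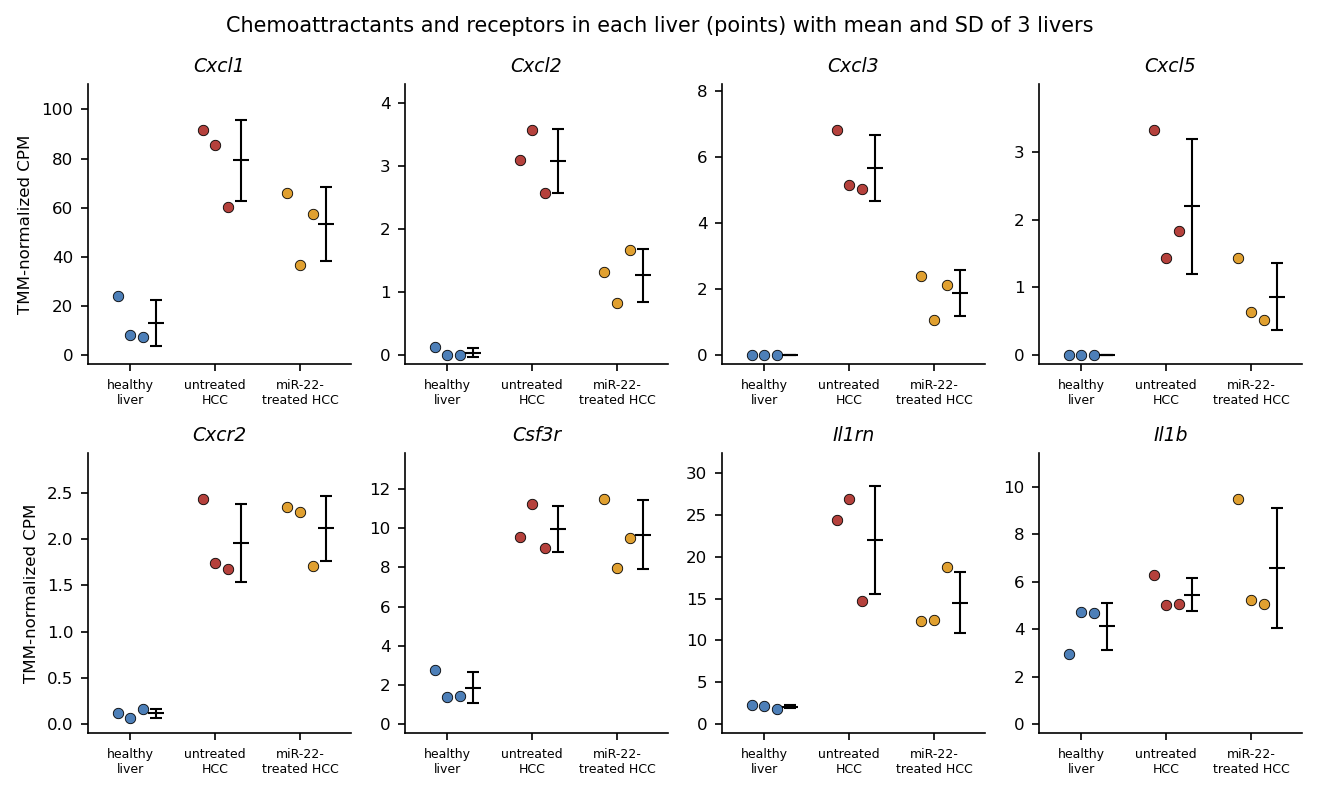
TMM-normalized CPM (vertical axes, each from 0) of 4 CXCR2 ligands, Cxcr2, Csf3r, Il1rn and Il1b in each liver, with points for livers and bars for mean and SD. The miR-22-treated livers lie below the untreated livers for Cxcl2 and Cxcl3 and overlap them for Cxcr2 and Csf3r.

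The interleukin 1 list held 10 further genes, all tested, of which 7 rose and 2 fell in untreated HCC against healthy livers, 1 rose and 0 fell with miR-22 against untreated HCC, and 6 rose and 0 fell in miR-22-treated HCC against healthy livers. Il1rn, the antagonist that blocks the interleukin 1 receptor, rose from 2.11 ± 0.213 CPM (SD, n = 3) to 22 ± 6.46 in untreated HCC, a log2 fold change of 3.38 (edgeR adjusted p = 5.18e-07), while the agonist Il1b did not pass. The count of Il1rn per count of Il1b ran from 0.4 to 0.766 in the healthy group, from 2.89 to 5.37 in the untreated group and from 1.3 to 3.72 in the miR-22-treated group. Il1r1, the signaling receptor, rose by 0.64 (edgeR adjusted p = 0.0144), and its accessory chain Il1rap fell by 1.61 (edgeR adjusted p = 8.50e-06). Il1rap was the list's gene that rose with miR-22, by 1.13 against untreated HCC (edgeR adjusted p = 0.00107). Casp4, a protease of the noncanonical inflammasome, rose by 2.61 in untreated HCC (edgeR adjusted p = 8.39e-07). Il1rl1, the receptor for interleukin 33, had 0 counts in each healthy liver and 12, 12 and 14 in untreated HCC. This was 8.99-fold higher than the floor of pooled healthy counts, counting error of the HCC counts left out. Il1rl1 passed the filter only through HCC livers.

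Among the genes around TREM1, 5 of 7 were tested, and 4 rose and 0 fell in untreated HCC, 0 passed with miR-22, and 3 rose in miR-22-treated HCC against healthy livers. Of the 4, Pglyrp1, Trem2 and Treml2 passed the filter only through HCC livers. Tyrobp, which encodes DAP12, rose by 0.97 on the log2 scale in untreated HCC (edgeR adjusted p = 0.000139). Pglyrp1, a granule peptidoglycan-binding protein that is a ligand of TREM1, had 4, 0 and 5 counts in healthy livers, 70, 66 and 53 in untreated HCC and 24, 27 and 33 in miR-22-treated HCC. It rose by 3.88 in untreated HCC (edgeR adjusted p = 4.37e-05), and its log2 fold change with miR-22 was -0.81 (95% interval -1.65 to 0.03, edgeR adjusted p = 0.152). Trem2, a receptor of macrophages, rose by 3.14 (edgeR adjusted p = 1.51e-05), and Treml2 by 1.55 (edgeR adjusted p = 0.0402). Of the list of G-CSF and its signaling, 3 of 4 genes were tested, all except Csf3 itself. Socs3, the feedback inhibitor, rose by 1.68 in untreated HCC (edgeR adjusted p = 3.30e-05) and fell by 0.96 with miR-22 (edgeR adjusted p = 0.00650). Jak2 and Stat3 stayed under the fold threshold in all 3 comparisons. Of the receptors of the CAMP peptide, P2rx7 rose by 0.61 in untreated HCC (edgeR adjusted p = 0.00882), while Fpr2 was not called in any of the 3 comparisons.

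Other granule and effector genes were counted in the same way. Of 15 genes of later granules and of the oxidase, 12 were tested, and 11 rose and 0 fell in untreated HCC as well as in miR-22-treated HCC against healthy livers. Of the 11, 5 (Ltf, Mmp9, Chil3, Pglyrp1 and Itgam) passed the filter only through HCC livers. Lyz2, the lysozyme of myeloid cells, rose by 1.47 (edgeR adjusted p = 9.35e-08) and Cybb, the catalytic subunit of the phagocyte oxidase, by 1.52 (edgeR adjusted p = 2.25e-07). Lcn2, which hepatocytes also make in inflammation, rose by 8.46 (edgeR adjusted p = 6.56e-09) and was the list's gene that fell with miR-22, by 0.83 (edgeR adjusted p = 0.0308). Of the 5 primary granule genes 1 was tested, Prtn3, and it rose by 3.99 in untreated HCC (edgeR adjusted p = 0.000616) and by 3.77 in miR-22-treated HCC against healthy livers (edgeR adjusted p = 0.00237), and it passed the filter only through HCC livers. In a further list of 20 genes of mature neutrophils, 19 were found and 12 tested, and 5 rose and 2 fell in untreated HCC, 3 of the 5 (Cxcr2, Mcemp1 and Clec4d) having passed the filter only through HCC livers. Slpi, a protease inhibitor also made by epithelium, rose by 6.01 (edgeR adjusted p = 2.40e-08). Msrb1 and Wfdc21 fell by 1.09 and 1.57 (edgeR adjusted p = 1.96e-06 and 2.93e-06), and their levels in healthy livers were far above those of the members. With miR-22, 3 of these 12 rose and 1 fell, and against healthy livers 5 rose and 0 fell.

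Of 6 transcription factors of granulocyte development, 4 were tested and 3 rose and 0 fell in untreated HCC, Runx1 having passed the filter only through HCC livers. Cebpd rose by 1.59 (edgeR adjusted p = 0.000164), Runx1 by 1.90 (edgeR adjusted p = 0.000573) and Spi1, which encodes PU.1, by 0.70 (edgeR adjusted p = 0.00503). Cebpb, needed for granulopoiesis under inflammation and also a hepatocyte factor, rose with miR-22 by 1.07 against untreated HCC (edgeR adjusted p = 0.000773) and was the only factor of the 4 called in that comparison. In miR-22-treated HCC against healthy livers 3 of the 4 rose and 0 fell. Cebpe, which turns on secondary granule genes such as Ngp and Camp in marrow, had 1 count over all 9 livers. Of 7 Ly6 and resistin family genes, 4 were tested, 2 rose (Ly6e and Ly6c1) and 0 fell in either HCC group against healthy livers, and 0 passed with miR-22. Ly6c1 passed the filter only through HCC livers.

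Markers of other cells moved with the members in part. The summed CPM of 7 monocyte genes ran from 9.74 to 10.8 in the healthy group, from 40.2 to 52.3 in the untreated group and from 28.1 to 39 in the miR-22-treated group, and 6 of the 7 rose in both HCC groups against healthy livers, 3 of them (Chil3, Ms4a4c and F13a1) having passed the filter only through HCC livers. The 10 neutrophil members summed to 6.68 to 7.61, 22.4 to 27.6 and 22.6 to 35.7 CPM in the same groups. Ccr2 rose by 2.89 in untreated HCC (edgeR adjusted p = 1.72e-06), while Ly6c2, the antigen of inflammatory monocytes, had -0.83 (edgeR adjusted p = 0.217). With miR-22, 1 monocyte gene fell, Cx3cr1, by 1.34 (edgeR adjusted p = 0.00145). The 5 pan-leukocyte genes summed to 48.3 to 57.5, 93.5 to 96.3 and 83.8 to 97.3 CPM, and Ptprc, the gene of CD45, rose by 0.68 in untreated HCC (edgeR adjusted p = 4.90e-05). The 11 macrophage and Kupffer cell genes summed to 557 to 639, 512 to 602 and 620 to 674 CPM, with 2 higher and 2 lower in untreated HCC. The part of these cells in the members' values was not tested.

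Set against Ptprc alone, the members differed among themselves. The count of Csf3r per count of Ptprc ran from 0.0622 to 0.121 in the healthy group, from 0.249 to 0.312 in the untreated group and from 0.224 to 0.290 in the miR-22-treated group, so all HCC livers were above all healthy livers in this ratio too. The part of leukocyte content in the Csf3r value was not tested by a ratio to 1 gene. For Il1b it was 0.129 to 0.223, 0.139 to 0.177 and 0.147 to 0.239, and the 3 groups overlapped.

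The other marker lists differed in direction. T and NK cell genes had 1 higher and 1 lower of 8 tested in untreated HCC, B and plasma cell genes 1 and 1 of 5, mast cell and basophil genes 0 and 0 of 1, with Fcer1a and Prss34 at 0 in all livers, and eosinophil genes 0 and 0 of 2. Erythroid genes, a sign of blood in the tissue, had 4 higher and 1 lower of 6, and summed to 121 to 176, 235 to 328 and 216 to 242 CPM. Platelet genes had 2 higher and 0 lower of 3, and both that rose (Pf4 and Ppbp) passed the filter only through HCC livers. The part of blood held in the vessels in the members' values was not tested. Hepatocyte genes had 0 higher and 6 lower of 6 in untreated HCC and 4 higher and 0 lower with miR-22, sinusoidal endothelial genes 0 and 3 of 5, stellate and myofibroblast genes 4 and 1 of 6, and ductal genes 4 and 0 of 5. Among the genes that rose in untreated HCC, Jchain of the B and plasma cell list and Krt7 of the ductal list also passed the filter only through HCC livers.

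**Figure D4:**
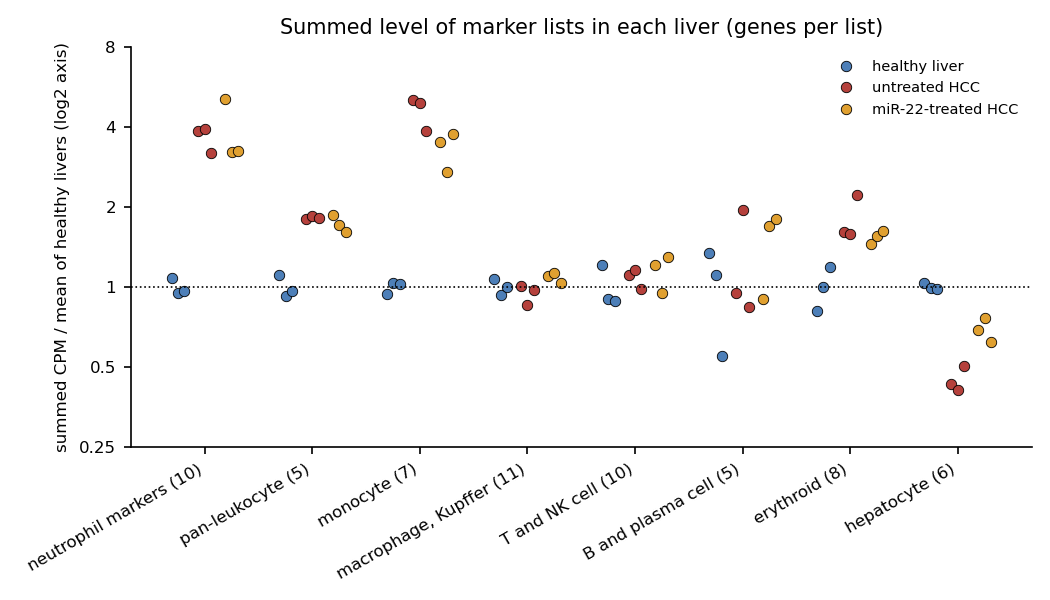
Summed CPM of marker lists in each liver divided by the mean of the healthy livers (vertical axis, log2 scale), with points for single livers and the number of genes of each list in brackets. The neutrophil and monocyte sums lie above the healthy livers in all 6 HCC livers, and the macrophage and Kupffer cell sums overlap them in untreated HCC.

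Across the 9 livers, deviations of log2 CPM from the group means were compared between members as a description, in which points share a library and its depth. S100a9 and Csf3r had a Pearson r of 0.89, S100a8 and Csf3r had 0.63, S100a8 and S100a9 had 0.32, and Trem1 and Il1b had 0.59. The other 6 pairs ran from -0.32 (S100a9 and Il1b) to -0.14. The values of S100a8 and S100a9 included healthy livers with 0 to 20 counts, and over the 6 HCC livers alone the 4 pairs had 0.75, 0.99, 0.78 and 0.51 and the other 6 ran from -0.047 to 0.86 (S100a9 and Il1b). Against the mean deviation of the other 4 tested members, Csf3r had r = 0.78, S100a9 0.32, S100a8 0.26, Il1b -0.11 and Trem1 -0.16 over the 9 livers, and 0.66, 0.88, 0.54, 0.85 and 0.25 in the same order over the 6 HCC livers. Against the mean deviation of all 5, the genes with the highest r out of 15717, a choice that makes high values likely over 9 livers, were Gm4864 (0.99), Steap2 (0.97), Laptm5 (0.96), Ddx54 (0.96) and Pigs (0.96). Laptm5, a lysosomal protein of leukocytes, is on the pan-leukocyte list, and the other 4 are on no list.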

How the data were processed

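RNA of 9 whole livers (3 healthy, 3 untreated HCC and 3 miR-22-treated HCC) was sequenced from non-directional libraries as 150-base pairs. Per the study's methods the authors estimated reads per gene with Salmon on GRCm39 and imported them with tximport. They deposited whole-number counts for 55401 genes, neither normalized nor filtered, and a table of the signal type that holds these counts divided by a DESeq2 size factor. The deposited signal values times that factor gave 100% whole numbers (tolerance 0.01), and 100% equalled the counts. Submitters' processing notes name FastQC 0.11.7 and DESeq2 1.18.

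Counts were tested with edgeR 4.0.16 in R 4.3.3 (TMM, filterByExpr, two-sided quasi-likelihood test, 3 groups in 1 fit, Benjamini-Hochberg adjustment over 15717 genes), called at adjusted p under 0.05 and a fold over 1.5. Intervals are 95%. The members, lists and alternatives were chosen with earlier results of these data known. Of 179 list symbols, 1 was not found. From each list up to 4 genes were named, those with the smallest p over the 3 comparisons, besides direct ligands, receptors and adaptors of members, and the 5 most alike genes. Other genes named as examples were chosen after their values were seen. Each library is 1 liver, and p-values measure the spread between these livers. Pairs of livers in a group differed with a chi-square per degree of freedom of 6.59 to 31.3, so all 9 libraries were counted as separate livers. Coordinates, promoters and 3′ untranslated regions come from GRCm39 with GENCODE M39, and figures from matplotlib 3.10.9.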

Additional observations from a re-analysis of the deposited data

How the results depend on the processing

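With DESeq2 1.42.0, DESeq2 size factors, upper-quartile normalization, no fold threshold or counts recovered from the normalized values (an alternative chosen after seeing the data), 4 members were called in untreated HCC and 4 in miR-22-treated HCC against healthy livers, and 0 between the HCC groups. With at least 10 counts in every library, Csf3r and Il1b alone could be tested and 1 member was called against healthy livers in each HCC group. Without a filter 5 and 9 were called, and in a fit of the 2 groups compared 4 and 3, Trem1 failing the filter in the latter. Each liver left out in turn gave 4 members in untreated HCC, 0 with miR-22 and 4 to 6 in miR-22-treated HCC against healthy livers. Over all genes it gave 6062 to 6599, 1433 to 2660 and 3242 to 3809 calls, against 6417, 2167 and 3772. The lowest of these, 1433, was without miR-22-treated replicate 3. Without a fold threshold 3777 genes were called with miR-22 and 5732 in miR-22-treated HCC against healthy livers.

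Small changes with miR-22 turned direction and stayed uncalled when 1 liver was left out. Without miR-22-treated replicate 2, S100a8 was -0.069, Trem1 -0.17 and Il1b -0.090, without miR-22-treated replicate 3, Csf3r was 0.080 and Trem1 -0.0022, and without untreated replicate 3, Csf3r was 0.057. Over all livers left out, S100a8 ran from -0.069 to 0.40, Csf3r from -0.18 to 0.080, Trem1 from -0.17 to 0.53 and Il1b from -0.090 to 0.44 in this comparison. S100a9 ran from 2.98 to 5.04 in untreated and from 2.70 to 4.75 in miR-22-treated HCC against healthy livers, highest without healthy replicate 1. The causes were not tested. Scaling moved the median of all genes by less than 0.1 (log2).

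Same-numbered HCC livers are not shown to be paired by the labels, and their deviations had a mean correlation of -0.15 across genes, against 0.08 for other pairs. With the replicate number as a block, 4, 0 and 4 members and 5863, 1745 and 3044 genes were called.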
